A study of Mus musculus with 4 samples.

Results

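Translation factors and aminoacyl-tRNA synthetases made up 102 of the 11111 genes measured in mouse bone marrow-derived macrophages. Members were chosen by symbol alone: symbols that start with Eif or Eef and a digit, symbols of an amino acid's letter followed by ars, and Eprs, Farsa and Farsb. The rule therefore also takes in enzymes that act on the factors, such as the eIF2alpha kinases. Macrophages were grown from the bone marrow of wild-type C57BL/6 mice for 7 days, with fresh medium on day 4. The control group received a control morpholino (Ctrl MO) and the other group received morpholinos that the labels describe as targeting Regnase-1 (Reg1-MOs), each at 2 µM for 24 hours. Morpholinos are antisense oligomers, and both groups also received the delivery agent Endoporter at 6 µl/ml and then 4 hours of lipopolysaccharide (LPS) at 10 ng/ml. Each group had 2 libraries, and no cells without LPS were analysed here. No label ties a group's libraries to different mice or cultures, and p-values therefore cover library-to-library spread that may be purely technical. In the table the Reg1-MOs libraries carry the headings MO1 and MO2, so each may stand for a different morpholino.

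Initiation factors (eIFs) bring the small ribosomal subunit, the initiator tRNA and the mRNA together, elongation factors (eEFs) deliver charged tRNAs and move the ribosome, and the synthetases load each tRNA with its amino acid. Phosphorylation of eIF2 by its kinases lowers general initiation while favouring translation of the transcription factor ATF4, whose targets include cytosolic synthetase genes. In macrophages LPS is known to change translation through mTORC1, the MNK kinases and the interferon-induced kinase PKR. The comparison asks which of these transcripts differ in LPS-treated macrophages after morpholinos directed at Regnase-1, an RNase that destroys inflammatory mRNAs.

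The libraries held 23369753 to 25213695 reads in the table. Levels below are RPM, reads scaled to library size on the authors' own scale, unless given per length as RPKM, which also divides by exon length and uses the reads in the table as library size. Zc3h12a, the gene of Regnase-1 (chromosome 4, 125118423 to 125127840 on GRCm38), stood at 179 and 187 with the control and at 403 and 380 with Reg1-MOs, a rise of 1.10 on the log2 scale (SE 0.07, limma adjusted p = 4.01e-04). The target's transcript was thus higher, not lower, in the libraries labelled Reg1-MOs, and Regnase-1 protein or activity was not measured here. The macrophage identity list was wholly in the table, 12 of 12, with 2 rises and 2 falls, beside 6.22% and 6.03% of all genes. The rises were those of Cd68 (0.34) and Aif1 (0.36) and the falls those of Itgam (-0.67) and Lyz2 (-0.27). Of the 12, 8 had an unadjusted limma p under 0.05. The summed level of the list was 22879 and 22873 against 20772 and 20939. Of 15 stromal and fibroblast markers, 12 were in the table and all 12 fell, with a median log2 fold change of -1.60. Their summed level was 276 and 281 with Ctrl MO against 105 and 118 with Reg1-MOs, none of the 12 was at 0 in any library, and their part in the results below was not tested. Of 10 neutrophil markers, 9 were in the table and none passed (3 at an unadjusted limma p under 0.05). Of 8 dendritic cell markers only Kit was in the table, and it fell (-0.67), and of 9 lymphocyte markers 1 was in the table and did not pass. In bulk RNA, fewer cells of a type and less RNA per cell cannot be told apart.

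Of the 102 members, 6 rose and 3 fell with Reg1-MOs. The rises were those of the seryl- and aspartyl-tRNA synthetase genes Sars and Dars, the elongation factor genes Eef1a2 and Eef1g, and the initiation factor genes Eif2d and Eif4b. The falls were those of the scaffold gene Eif4g2, the RNA helicase gene Eif4a2 and Eif2ak2, the gene of PKR. These counts are 5.88% and 2.94% of the members, against 6.22% and 6.03% of all 11111 genes by the same limma test, so on the authors' scale the share that rose was near the background and the share that fell was below it. The count of rises was 11 with equal totals (10.8% of members and 7.95% of all genes), 10 with quantile normalization (9.80% and 7.61%) and 10 with median-ratio size factors (9.80% and 7.43%). With 1 library left out it was 3 to 6, and there were 5 falls on leaving out Reg1-MOs replicate 2 and 0 on leaving out any of the other 3 libraries.

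Small differences in the upward direction were common among the members. In 51 of the 102, both Reg1-MOs libraries lay above both Ctrl MO libraries, a pattern seen in 27.1% of all genes. In 17 both lay below, a pattern seen in 31.8% of all genes. The members were measured at greater depth, with a median of 1127 mean reads against 429.5 over all genes. These shares were not matched for depth. The median log2 fold change was 0.08 over the members and -0.03 over all genes tested, and 74 members and 5068 of the 11111 genes stood above 0. The member median was 0.06 on leaving out Reg1-MOs replicate 1 and was 0.13 on leaving out Reg1-MOs replicate 2.

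**Figure D1:**
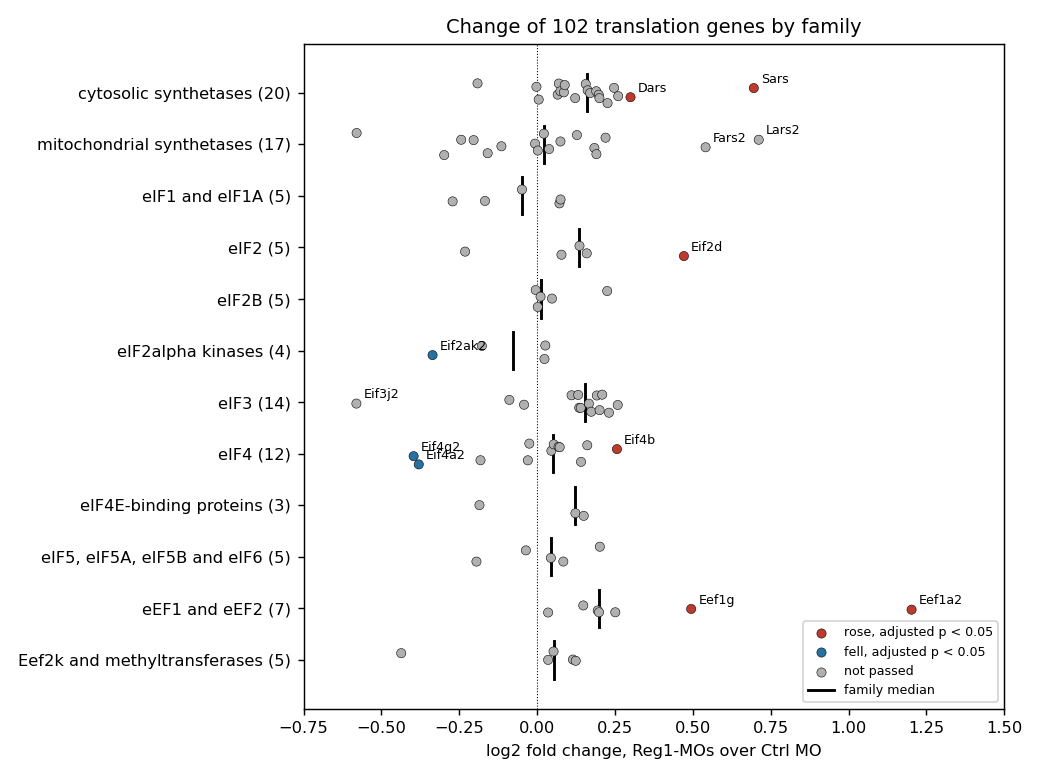
Log2 fold change (Reg1-MOs over Ctrl MO, x axis) of each of the 102 genes, by family (y axis, number of genes in brackets), with 1 point per gene and a bar at the family median. Red points rose and blue points fell at a limma adjusted p of 0.05. Most cytosolic synthetases and eIF3 subunits lie a little to the right of 0, with family medians of 0.16 and 0.15.

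Among 20 cytosolic synthetase genes, Sars and Dars rose and none fell, while 6.22% of all genes rose and 6.03% fell. Of the 20, 18 stood above 0, as did 5068 of all 11111 genes, and the median of the 20 was 0.16. Gars and Kars, which serve both compartments, are counted here. Both Reg1-MOs libraries were above both controls for 16 of the 20, against 27.1% of all genes. Stromal markers (median -1.60) were lower in the same libraries, and a link to these values was not tested. The cytosolic median was 0.10 without Ctrl MO replicate 2 and 0.11 without Reg1-MOs replicate 1.

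Sars, which charges serine tRNA and also serves selenocysteine, lies on chromosome 3 (108424865 to 108445209 on GRCm38). It stood at 59.6 and 57.1 with Ctrl MO and at 93.3 and 95.7 with Reg1-MOs. Both Reg1-MOs libraries lay above both controls, as in 27.1% of all genes, and the replicates lay close together. The log2 fold change was 0.70 (SE 0.07, adjusted p = 0.00205), from 1087 to 1807 reads per library. The call held in all 11 alternatives without a replicate block, with adjusted p from 3.64e-04 to 0.0435. It was the largest rise among the 20 cytosolic synthetases, of which the next was Dars.

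Dars, which charges aspartate tRNA and sits in the multi-synthetase complex, stood at 42.6 and 42.4 against 51.5 and 53.2. That is a log2 fold change of 0.30 (SE 0.08, adjusted p = 0.0448), just inside the threshold. Its call ended in 5 alternatives, namely without a variance trend (0.117), without Ctrl MO replicate 1 (0.267) or 2 (0.322) and without Reg1-MOs replicate 1 (0.0838) or 2 (0.0711), and the adjusted p ran from 0.0322 to 0.322 over the 11 alternatives without a replicate block. The alanyl- and cysteinyl-tRNA synthetase genes Aars and Cars lay just outside. Aars stood at 283 and 281 against 331 and 329 (0.23, SE 0.06, adjusted p = 0.0528). Cars stood at 109 and 105 against 127 and 127 (0.25, SE 0.07, adjusted p = 0.0539). In both, the Reg1-MOs libraries lay above both controls, as in 27.1% of all genes. Both genes were picked after their values had been seen. Neither passed over the whole table, though both passed with equal totals (0.0397 and 0.0423) or median-ratio size factors (0.0399 and 0.0416), and Aars also with quantile normalization (0.0370). Over the same 11 alternatives they reached 0.459 and 0.470.

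The lowest cytosolic value was that of Farsa, the catalytic chain of phenylalanyl-tRNA synthetase, at 79.7 and 75.0 against 70.2 and 65.4 (-0.19, adjusted p = 0.155). Its partner chain Farsb stood at 0.09 (adjusted p = 0.595). Wars, the interferon-inducible tryptophanyl-tRNA synthetase gene, had the highest level per length of the synthetases, at 70.2 RPKM. Its 303 and 311 RPM with Ctrl MO against 315 and 333 with Reg1-MOs gave a log2 fold change of 0.07 (adjusted p = 0.486).

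Promoter sequences were searched for the letters of the C/EBP-ATF response element, through which ATF4 is known to act. A match of letters does not show a working element. Of the 20 cytosolic synthetase genes, 13 had a RefSeq promoter, and 3 of these held TGATGNAA on either strand within the 250 bases before the start. The same motif stood in 5 of 78 members, in 0 of 14 mitochondrial synthetase genes and in 3.91% of the 27025 genes with a promoter (2.49% of the genes in the table that have one). The windows are given on the gene's strand on GRCm38.p6, with the match, here on the opposite strand, in capitals, and lie at chr8:111033714-111033753 (plus strand, Aars), chr6:55037955-55037994 (plus strand, Gars) and chr15:11399659-11399689 (minus strand, Tars).
Aars: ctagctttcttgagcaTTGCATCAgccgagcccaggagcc
Gars: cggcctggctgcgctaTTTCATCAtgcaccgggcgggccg
Tars: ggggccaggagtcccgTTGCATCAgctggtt
These 3 genes had log2 fold changes of 0.23, 0.20 and 0.12, none past the threshold. The 100 bases before the start of Sars, the synthetase gene that rose most clearly, are shown for comparison (chr3:108445260-108445359, minus strand).
Sars: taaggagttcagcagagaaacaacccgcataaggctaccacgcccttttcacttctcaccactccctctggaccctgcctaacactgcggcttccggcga
Neither this motif nor TGACNNNGC, the core of the antioxidant response element, was found in the 250 bases before the start of Sars, which says only that these letters are not in that window.

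Mitochondrial synthetases are nuclear genes whose enzymes charge tRNAs inside mitochondria. Of 17, none passed (4 at an unadjusted limma p under 0.05), 10 stood above 0 (5068 of all 11111 genes did), and their median was 0.02. They were measured at lower depth, with a median of 97.8 mean reads against 1509 for the cytosolic genes, so small differences were less detectable. Per length, the cytosolic gene for the same amino acid was higher in 15 of the 16 pairs compared, with a median ratio of 15.7. The exception was the leucyl-tRNA synthetase pair.

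Lars2 stood at 208 and 137 with Ctrl MO and at 316 and 243 with Reg1-MOs. Both Reg1-MOs libraries lay above both controls, as in 27.1% of all genes, but the gap between the controls was wide. The log2 fold change of 0.71 (SE 0.19) had an adjusted p of 0.0545. Lars2 passed with equal totals (0.0306), with quantile normalization (0.0387) and with median-ratio size factors (0.0442), but not without a variance trend (0.196). Its log2 fold change was 0.41 on leaving out Ctrl MO replicate 2 and 1.01 on leaving out Ctrl MO replicate 1. Its level per length, 15.7 RPKM, was far above the 0.0821 to 3.05 of the other 16 mitochondrial synthetase genes. Fars2, the mitochondrial phenylalanyl enzyme, stood at 7.89 and 8.89 against 13.9 and 10.7 (0.54, SE 0.15, adjusted p = 0.0592), opposite in sign to Farsa. It passed with equal totals (0.0442) and with quantile normalization (0.0391), but not without a variance trend (0.146). With 1 library left out its log2 fold change ran from 0.36 (without Reg1-MOs replicate 1) to 0.73 (without Reg1-MOs replicate 2). Iars2, the deepest of the others with 501 to 595 reads, stood at 0.13 (adjusted p = 0.392).

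**Figure D2:**
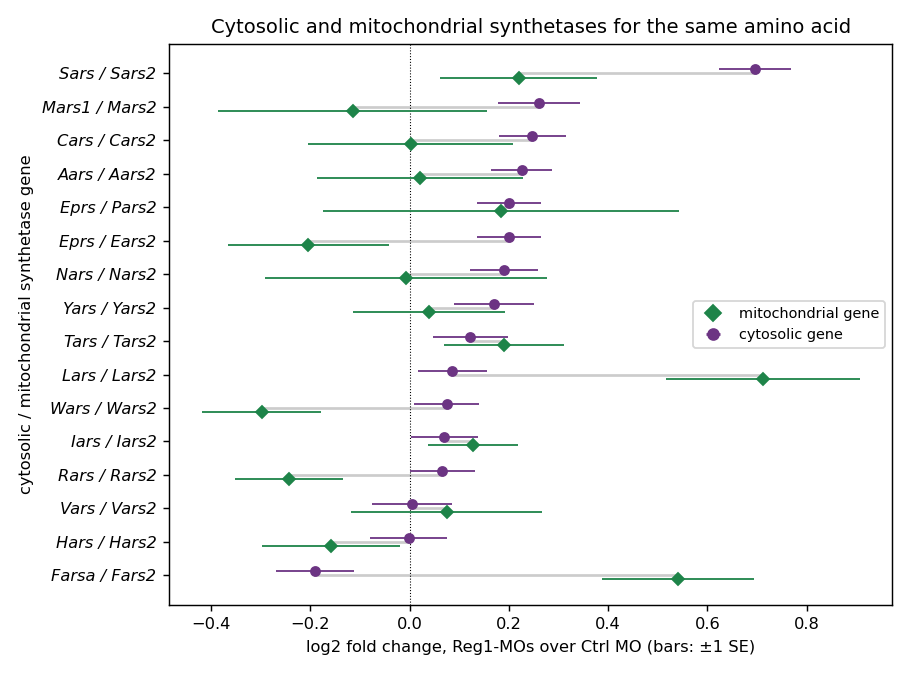
Log2 fold change (x axis, bars ±1 moderated SE, 2 libraries per group) of the cytosolic gene (circles) and the mitochondrial gene (diamonds) for the same amino acid, 16 pairs. The cytosolic value is the higher one in 11 of the 16, and the bars of the mitochondrial genes are wider.

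eIF2 carries the initiator tRNA to the ribosome, and eIF2B reloads it with GTP. Of 5 eIF2-named genes, Eif2d rose and the others did not pass, while 6.22% of all genes rose and 6.03% fell. Eif2d is not a subunit of eIF2 but a separate factor that can place tRNA on the ribosome without it and helps recycle ribosomes. It stood at 13.5 and 13.0 with Ctrl MO and at 18.2 and 18.6 with Reg1-MOs (0.47, SE 0.10, adjusted p = 0.0230), from 248 to 352 reads. Like 27.1% of all genes, it had both Reg1-MOs libraries above both controls. Its call ended without a variance trend (0.0603), without Ctrl MO replicate 1 (0.0756) or 2 (0.144) and without Reg1-MOs replicate 1 (0.0807) or 2 (0.0589), with a range of 0.0159 to 0.144 over the 11 alternatives without a replicate block. Of the 78 member promoters, 13 held the antioxidant response element core TGACNNNGC on either strand, which is 16.7% of them, against 11.5% of the 27025 genes and 14.1% of the genes in the table that have a promoter. Eif2d was the member past the threshold among them. Its window at chr1:131153172-131153206 (plus strand, GRCm38.p6) is shown with the match, on the opposite strand, in capitals.
Eif2d: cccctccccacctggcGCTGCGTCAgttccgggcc

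The true eIF2 subunits differed little between groups. Eif2s1, the alpha subunit that the kinases phosphorylate, stood at 110 and 111 against 123 and 123 (0.16, adjusted p = 0.159), and the beta subunit gene Eif2s2 at 0.14 (adjusted p = 0.249). The X-linked gamma subunit gene Eif2s3x stood at 55.1 and 55.7 against 42.2 and 52.8, where the low library was Reg1-MOs replicate 1 (-0.23, adjusted p = 0.219). It passed without Reg1-MOs replicate 2, at -0.39 (adjusted p = 0.0402, and up to 0.531 under the same 11 alternatives). The 5 eIF2B subunit genes lay between -0.0044 and 0.23 with a median of 0.01, and none passed (0 at an unadjusted limma p under 0.05).

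Of the 4 eIF2alpha kinase genes, Eif2ak2 fell and the other 3 did not pass, while 6.22% of all genes rose and 6.03% fell. Eif2ak2 encodes PKR, which is induced by interferon and activated by double-stranded RNA, and lies on chromosome 17 (78852564 to 78882573). It stood at 739 and 784 with Ctrl MO and at 566 and 643 with Reg1-MOs (-0.34, SE 0.08, adjusted p = 0.0348). Every Reg1-MOs value lay below both controls, as in 31.8% of all genes. The call ended without a variance trend (0.153), without Ctrl MO replicate 1 (0.0886) or 2 (0.251) and without Reg1-MOs replicate 1 (0.107), a range of 0.0209 to 0.251 over the 11 alternatives without a replicate block. PKR was also the most abundant kinase per length, at 102 RPKM. The haem-regulated kinase gene Eif2ak1 stood at 6.87, the endoplasmic reticulum kinase gene Eif2ak3 (PERK) at 0.968 and the amino acid-sensing Eif2ak4 (GCN2) at 0.924 on the same scale. Per length, Eif2ak2 was 12.0 to 17.6 times Eif2ak1 over the 4 libraries, and both ratios with Reg1-MOs were below both with Ctrl MO. The log2 fold changes were 0.02 for Eif2ak1 (adjusted p = 0.869), -0.18 for Eif2ak3 (0.425) and 0.03 for Eif2ak4 (0.918). No difference was detectable for Eif2ak3 and Eif2ak4 at 128 to 183 reads per library.

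Of 28 listed genes of eIF2 phosphorylation and the ATF4 branch, 25 were in the table. Of these 4 rose, 2 fell and 19 did not pass, while 6.22% of all genes rose and 6.03% fell. The list median was -0.04 beside -0.03 for all genes. The rises were those of the transcription factor gene Ddit3 (CHOP; 0.47, adjusted p = 0.0151), the amino acid transporter chain genes Slc3a2 (0.35, adjusted p = 0.0135) and Slc7a11 (0.33, adjusted p = 0.0428) and the serine synthesis gene Phgdh (0.45, adjusted p = 0.0393). The falls were those of Impact, an inhibitor of GCN2 activation (-0.49, adjusted p = 0.0225), and Psat1, another serine synthesis gene (-0.28, adjusted p = 0.0484). Atf4 itself stood at -0.10 (adjusted p = 0.352), and the asparagine synthetase gene Asns at 0.24 (0.0593). All 6 calls ended without a variance trend and on leaving out either Ctrl MO library. All but that of Slc7a11 also ended without Reg1-MOs replicate 1, and those of Slc7a11, Phgdh and Psat1 without Reg1-MOs replicate 2. The Psat1 call also ended with equal totals (0.0587) and median-ratio size factors (0.0549). Over the 11 alternatives without a replicate block the adjusted p ran from 0.0104 to 0.0741 for Ddit3 and from 0.0467 to 0.369 for Psat1.

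eIF4F, the complex that binds the mRNA cap, is built from the cap-binding protein eIF4E, a scaffold of the eIF4G family and an eIF4A helicase. Of 12 eIF4 genes, Eif4b rose and Eif4g2 and Eif4a2 fell, while 6.22% of all genes rose and 6.03% fell. The median of the 12 was 0.05. Stromal markers (median -1.60) were lower in the same libraries as the falls, and a link between them was not tested.

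Eif4g2 encodes DAP5, a scaffold that cannot bind eIF4E and serves cap-independent initiation. It lies on chromosome 7 (111067750 to 111083030) and was the most abundant eIF4 gene per length, at 169 RPKM. It stood at 2514 and 2567 with Ctrl MO and at 1818 and 2049 with Reg1-MOs (-0.40, SE 0.08, adjusted p = 0.0162), with 35225 to 48923 reads per library. Both Reg1-MOs libraries were below both controls, as in 31.8% of all genes, with replicate 1 further below than replicate 2. The canonical scaffold gene Eif4g1 stood at 532 and 543 against 465 and 483 (-0.18, SE 0.06, adjusted p = 0.100). It too had both Reg1-MOs libraries below both controls, as 31.8% of all genes do. Eif4g3 stood at 139 and 157 against 140 and 150 (-0.03, adjusted p = 0.845), with overlapping groups. Per length, Eif4g2 was 3.40 and 3.39 times Eif4g1 with Ctrl MO and 2.81 and 3.05 times with Reg1-MOs.

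Eif4a2, a near-identical paralog of the helicase gene Eif4a1, stood at 115 and 118 against 86.6 and 92.2 (-0.38, SE 0.07, adjusted p = 0.0159). Eif4a1 stood at 260 and 264 against 291 and 261 (0.07, adjusted p = 0.553), so that its groups overlapped. Per length, Eif4a2 was 35.8% and 36.2% of Eif4a1 with Ctrl MO against 24.2% and 28.6% with Reg1-MOs. Reads that both genes share could have been split between them by the counting, so these values are uncertain, and whether the 2 changes differ was not tested. Eif4a3, which works in the exon junction complex, stood at 0.05 (adjusted p = 0.720). The calls of Eif4g2 and Eif4a2, in this order, ended without a variance trend (0.109 and 0.0903), and on leaving out Ctrl MO replicate 1 (0.0633 and 0.0878) or 2 (0.0996 and 0.148) or Reg1-MOs replicate 1 (0.0588 and 0.0620). Over the 11 alternatives without a replicate block they ranged from 0.00379 to 0.109 and from 0.0105 to 0.148.

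Eif4b, a cofactor that stimulates the helicase, stood at 183 and 183 against 213 and 224 (0.26, SE 0.07, adjusted p = 0.0452). Its related cofactor Eif4h stood at 243 and 236 against 270 and 265 (0.16, adjusted p = 0.140). The Eif4b call ended without a variance trend (0.153), without Ctrl MO replicate 1 (0.317) or 2 (0.361) and without Reg1-MOs replicate 1 (0.0647) or 2 (0.0654), in a range of 0.0271 to 0.361 over the 11 alternatives without a replicate block.

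The cap-binding proteins and their inhibitors did not pass, and of the 3 inhibitor genes 0 had an unadjusted limma p under 0.05. Eif4e stood at 70.5 and 65.4 against 68.7 and 73.9 (0.07, adjusted p = 0.614), the repressive homologue gene Eif4e2 (4EHP) at -0.02 (0.837) and Eif4e3 at 0.14 (0.274). Among the 3 eIF4E-binding proteins, which mTORC1 releases from eIF4E by phosphorylation, Eif4ebp1 stood at 48.2 and 43.6 against 55.2 and 46.8 (0.15, adjusted p = 0.381). Eif4ebp2 stood at -0.19 (0.429) and Eif4ebp3 at 0.12 (0.626). With 1 library left out, Eif4ebp1 ran from 0.030 (without Reg1-MOs replicate 1) to 0.27 (without Reg1-MOs replicate 2) and Eif4ebp2 from -0.32 (without Reg1-MOs replicate 2) to -0.046 (without Reg1-MOs replicate 1). Per length, Eif4ebp1 was 12.2 to 18.7 times Eif4ebp2 over the 4 libraries. Of 15 genes of mTORC1 and MNK control of the cap-binding complex, all in the table, none passed (5 at an unadjusted limma p under 0.05), with values from -0.26 to 0.31 and a median of 0.08.

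**Figure D3:**
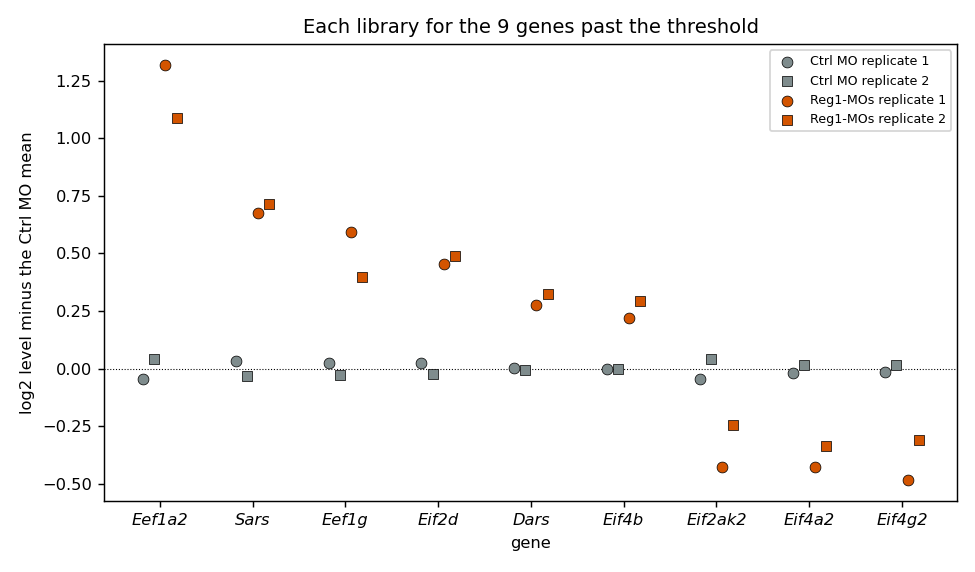
Level in each of the 4 libraries (log2 minus the mean of the 2 Ctrl MO libraries, y axis) of the 9 genes past the threshold (x axis), with grey Ctrl MO and orange Reg1-MOs points. The groups are apart in all 9 genes, which were picked by the group test on these same values. Reg1-MOs replicate 1 lies further from the controls than replicate 2 in Eef1a2, Eef1g and the 3 genes that fell.

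eIF3, the large scaffold that holds the small ribosomal subunit ready, had 14 subunit genes in the table and no call (4 at an unadjusted limma p under 0.05). Of these, 11 were above 0 (5068 of all 11111 genes were), at 0.11 to 0.26. All 11 had both Reg1-MOs libraries above both controls (27.1% of all genes do). The other 3, Eif3a, Eif3j1 and Eif3j2, were below 0, and the median of the 14 was 0.15. The highest was Eif3h, at 125 and 127 against 157 and 145 (0.26, SE 0.07, adjusted p = 0.0574), and it passed without Reg1-MOs replicate 2 (0.0421), with equal totals (0.0471) and with median-ratio size factors (0.0460), while its highest adjusted p over the same 11 alternatives was 0.364. The largest subunit's gene Eif3a, with 7916 to 8714 reads, stood at 454 and 457 against 409 and 449 (-0.09, adjusted p = 0.439). Eif3j is encoded by a near-identical pair. Eif3j1 stood at 35.0 and 33.6 against 33.1 and 33.6 (-0.04, adjusted p = 0.777). Eif3j2 had 29 and 62 reads against 12 and 62, a spread within each group that was wider than the difference between them (-0.58, SE 0.72, adjusted p = 0.635). Its sign turned without Reg1-MOs replicate 1 (0.64).

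The remaining 10 initiation factor genes did not pass, with 2 at an unadjusted limma p under 0.05 among 5 of the eIF1 family and 2 among 5 of eIF5 and eIF6. eIF1 and eIF1A keep the scanning ribosome open. Eif1 stood at 310 and 301 against 316 and 276 (-0.05, adjusted p = 0.724) and its paralog Eif1b at 26.6 and 25.4 against 23.1 and 20.1 (-0.27, adjusted p = 0.133). Eif1a stood at -0.17 (0.126), and the X-linked Eif1ax at 0.07 (0.662). Eif5, which triggers GTP hydrolysis on eIF2, stood at 285 and 290 against 238 and 266 (-0.19, adjusted p = 0.132), and passed without Reg1-MOs replicate 2 (-0.27, adjusted p = 0.0455, against up to 0.580 elsewhere among the 11). Eif5b, which joins the ribosomal subunits, stood at 0.08 (0.443), and Eif6, which keeps them apart, at 199 and 189 against 236 and 211 (0.20, adjusted p = 0.137). Eif5a, which carries hypusine and relieves stalled ribosomes, stood at 402 and 371 against 402 and 354 (-0.04, adjusted p = 0.810), while its rare paralog Eif5a2, at 0.857% to 0.994% of Eif5a per length, stood at 0.04 (0.846). Of 9 genes of hypusine and diphthamide modification, all in the table, Dph6, needed for diphthamide on eEF2, rose (0.69, adjusted p = 0.0218, from 79 to 129 reads). None fell, while 6.22% of all genes rose and 6.03% fell, and the list median was -0.10. The Dph6 call was lost on leaving out Ctrl MO replicate 2 (0.0854), Reg1-MOs replicate 1 (0.0796) or Reg1-MOs replicate 2 (0.0684), in a range of 0.0124 to 0.0854 over the 11 alternatives without a replicate block.

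Of 7 genes with eEF1 or eEF2 names, Eef1a2 and Eef1g rose and none fell, while 6.22% of all genes rose and 6.03% fell. All 7 stood above 0, as did 5068 of all 11111 genes, and the median of the 7 was 0.20. eEF1A delivers charged tRNA, the eEF1B subunits recharge it with GTP, and eEF2 moves the ribosome along. Eef1a1 and Eef2 were the most abundant members per length, at 981 and 403 RPKM. Eef1a1 stood at 3006 and 2931 against 3453 and 3361 (0.20, SE 0.06, adjusted p = 0.0794). Eef2 stood at 1629 and 1625 against 1880 and 1845 (0.19, SE 0.06, adjusted p = 0.0765), and passed with quantile normalization (0.0423, against up to 0.545 elsewhere among the 11). In both genes the Reg1-MOs libraries lay above both controls, as in 27.1% of all genes. Neither gene passed over the whole table on the authors' scale.

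Eef1a2, the form of eEF1A normally found in muscle and neurons (chromosome 2, 181147653 to 181157014), had the largest change of all members. It stood at 3.38 and 3.59 with Ctrl MO and rose to 8.70 and 7.40 in the Reg1-MOs libraries. The log2 fold change was 1.20 (SE 0.15, adjusted p = 0.00352). This was a 2.30-fold difference measured on few reads, 64 and 68 against 168 and 131. The call held in all 11 alternatives without a replicate block, with adjusted p from 5.71e-05 to 0.0459. Per length it was 0.134% and 0.146% of Eef1a1 with Ctrl MO against 0.300% and 0.262% with Reg1-MOs. The genes code for near-identical proteins, so reads from the abundant paralog can weigh on this value, and that was not tested.

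Eef1g, the gamma subunit that anchors the eEF1B exchange complex, stood at 128 and 123 against 189 and 165 (0.49, SE 0.08, adjusted p = 0.0105), with 2347 to 3667 reads. Both Reg1-MOs libraries lay above both controls, as in 27.1% of all genes, and were further apart than the controls. Its call held in 10 of the 11 alternatives without a replicate block and ended without a variance trend (0.0860), with a lowest adjusted p of 0.00617. The beta subunit gene Eef1b2 stood at 185 and 179 against 229 and 205 (0.25, SE 0.08, adjusted p = 0.0712) and passed without Reg1-MOs replicate 2 (0.0401, against up to 0.441 elsewhere among the 11). The delta subunit gene Eef1d stood at 0.15 (adjusted p = 0.293), and Eef1e1, a scaffold of the multi-synthetase complex despite its name, at 0.04 (0.886). Of the 5 genes of enzymes that modify elongation factors, none passed (1 at an unadjusted limma p under 0.05). The eEF2 kinase gene Eef2k stood at 4.53 and 4.22 against 4.62 and 4.92 (0.12, adjusted p = 0.622), and the eEF2 methyltransferase gene Eef2kmt at 5.43 and 6.22 against 4.52 and 4.08 (-0.44, SE 0.15, adjusted p = 0.108).

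**Figure D4:**
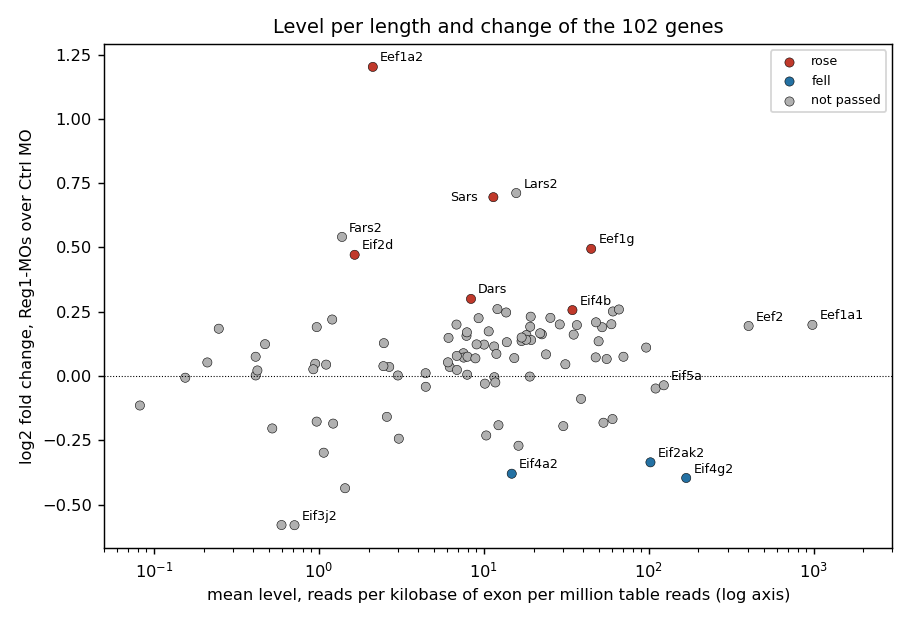
Mean level per length over the 4 libraries (RPKM, log x axis) against the log2 fold change (y axis) of the 102 genes. The members past the threshold lie between 1.65 (Eif2d) and 169 (Eif4g2) RPKM, and the most abundant members, Eef1a1 and Eef2, did not pass.

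Of 17 genes of termination, recycling and poly(A) binding, 16 were in the table, and of these 2 rose and none fell, beside 6.22% and 6.03% of all genes. The release factor gene Gspt1 (eRF3a) rose by 0.27 (adjusted p = 0.0329, 4782 to 5814 reads) and Pabpc4, a poly(A)-binding protein gene, by 0.42 (adjusted p = 0.0382, 325 to 464 reads), with a list median of 0.05. Both calls ended when the variance trend was dropped (0.135 and 0.101) and on leaving out any 1 library, with adjusted p up to 0.338 and 0.275 and down to 0.0191 and 0.0242 among the 11 alternatives without a replicate block. None of 14 mitochondrial translation factors passed (0 at an unadjusted limma p under 0.05), with values from -0.45 to 0.36 and a median of 0.04. Of 10 synthetase helpers, Dtd1, which removes wrongly charged D-amino acids, fell by 0.49 (adjusted p = 0.0488). None rose, beside the same 6.22% of all genes that rose and 6.03% that fell. Of the 11 alternatives without a replicate block, 9 ended the Dtd1 call, and the list median was 0.04.

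**Figure D5:**
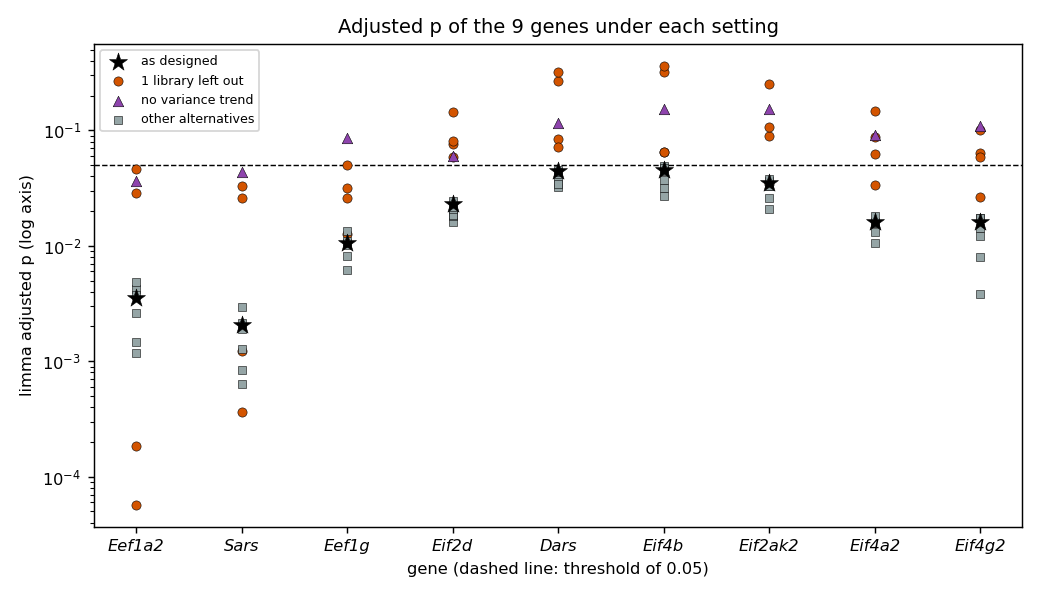
Limma adjusted p (log y axis) of the 9 genes past the threshold (x axis) as designed (stars) and under the 11 alternatives without a replicate block. The stars lie below the dashed line at 0.05. The points of Eef1a2 and Sars all stay below it, those of Eef1g cross it without a variance trend, and those of the other 6 genes cross it when a library is left out.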

How the data were processed

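Poly(A) RNA of 4 libraries was sequenced from directional libraries on an Illumina NextSeq, per the labels' protocols. The submitters' processing notes name cutadapt, FastQC, HISAT2 1.6.3 and the build mm10. How reads were counted, filtered and normalised, and whether strand was used, is not given in the sources used here. As deposited, the authors' table holds 1 log2 value per gene and library, for 11111 genes. Taken off the log2 scale, divided by its library's smallest step and reduced by 0.5, a value was whole to within 0.01 for 100% of genes, so reads per gene were recovered. Recovered reads were used for depth, for levels per length and in alternatives. The implied library sizes (17767798 to 19377000) were below the table totals, so the values were not scaled by the plain total.

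All 11111 genes were fitted together on the deposited log2 values, unfiltered, with limma 3.58.1 (R 4.3.3, mean-variance trend, group as the only term, two-sided) and Benjamini-Hochberg adjustment over the whole table. The design had foreseen this case of values already on a log scale. The threshold was an adjusted p of 0.05. The fit was tested on simulated data. SE is the moderated standard error, with 2 residual and 5.47 prior degrees of freedom. All 102 members matched GENCODE M21 on GRCm38, the assembly of mm10, by Ensembl identifier, 100 of them with the same symbol. Mars1 and Eef1aknmt are named Mars and Mettl13 there. Exon length is the union of annotated exons.

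The members and lists were chosen with earlier results of these data known. The genes named are Zc3h12a, members past the threshold, the 10 largest changes among members with a mean of at least 50 reads, 10 paralog families, the 5 highest levels per length and pathway genes past the threshold. Another 16 genes, among them Aars, Cars, Eif3h and Eef1b2, were followed through the alternatives after their values had been seen. The remaining members serve as range ends, counts or comparisons, such as Farsb, Eef1d and Eef1e1. Atf4 and Asns were named outside this rule, as neither passed. In total, 12 alternatives were run. Promoter sequences, 250 bases before to 50 after each start, came from RefSeq on GRCm38.p6 and were found for 78 members. 1 gene that the rule names, and its synthetase pair, are not reported here. No column of the table was left out.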

Additional observations from a re-analysis of the deposited data

How the results depend on the processing

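Among all genes, the counts of 691 rises and 670 falls were 195 and 182 without a variance trend, and ran from 249 to 530 and from 258 to 860 with 1 library left out. Among the 102 members, the 6 rises were 11 with equal totals, 10 with quantile normalization, 10 with median-ratio size factors, 2 without a variance trend, and 3 to 6 with 1 library left out. The 3 falls were 0 without a variance trend and 0 to 5 with 1 library left out. All 9 calls were kept under the 3 other scalings, voom weights, the offset of 8 reads and the minimum of 50 reads, which left 97 members. The other scalings moved the median of all genes by at most 0.023 on the log2 scale. The cause of these shifts was not tested, other than that leaving out a library leaves fewer samples.

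With a replicate block, which no label supports, 1532 genes rose and 1891 fell, among them 26 and 11 members, all 9 calls included. These are 13.8% and 17% of all genes and 25.5% and 10.8% of the members. The deviations of same-numbered libraries correlated at 0.0958 over all genes and at 0.314 over genes with at least 50 reads, and with 2 numbers this does not settle a pairing.

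Over the genes followed through the alternatives, 645 gene and setting pairs kept direction and side of the threshold, 78 lost the call, 40 gained one and 16 turned sign, none of the latter in a called gene. Without Reg1-MOs replicate 1, Eif4ebp3 stood at -0.061, Eif4a1 at -0.0042, Eif2ak1 at -0.0064, Eif4a3 at -0.0020, Eif4g3 at 0.018, Eif1ax at -0.023 and Eif3j2 at 0.64. Without Reg1-MOs replicate 2, Eif1 stood at 0.048, Eif2ak4 at -0.045 and Eif5a at 0.056. Without Ctrl MO replicate 1, Eif2ak4 stood at -0.084 and Eif5a at 0.023, and without Ctrl MO replicate 2, Eif2ak1 stood at -0.0020, Eif4g3 at 0.059 and Eif1ax at -0.0026. With quantile normalization Eif5a stood at 0.014. At the other end of the values with 1 library left out stood Eif4ebp3 at 0.31, Eif4a1 at 0.15, Eif2ak1 at 0.054, Eif4a3 at 0.094, Eif1ax at 0.17 and Eif3j2 at -1.80 (all without Reg1-MOs replicate 2), Eif1 at -0.14 and Eif5a at -0.13 (without Reg1-MOs replicate 1), Eif4g3 at -0.12 (without Ctrl MO replicate 1) and Eif2ak4 at 0.14 (without Ctrl MO replicate 2). Where 1 library was left out, the lone sample was assumed to vary like the other group, whose spread limma moderated toward genes of similar level. Lars2 and Eif4a2 had nearly the same SE without Ctrl MO replicate 1, though the Reg1-MOs libraries of Lars2 lay much further apart. Every called member had a larger SE without a Ctrl MO library than without a Reg1-MOs library. Calls gained or lost there therefore do not measure a gene's own spread alone. Mean reads were as few as 18.8 in Pars2, and the median was 97.8 over the mitochondrial synthetases and 95 over Eef2k and the methyltransferases, so small differences were less detectable there.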
